A study of Homo sapiens with 8 samples.

Results

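hsa-miR-3177-3p and hsa-miR-1262 (below without the species prefix) are microRNAs of human HEK293 cells, an established embryonic kidney cell line, and both are cut from hairpins that lie inside introns of protein-coding genes. These 2 were picked by name from a table of 2867 entries (903 known and 1964 predicted microRNAs). They were chosen by their measured counts, which had been lower in cells given an antisense oligonucleotide (ASO). An ASO is a short synthetic nucleic acid made to bind an RNA by base pairing, here miR-31 according to the names of the libraries. The question stated for the series was whether the ASO disturbed other small RNAs. One group held 4 libraries from cells transfected with 100 nM ASO and the other held 4 libraries from cells given no ASO, all collected after 48 h. No group received an unrelated ASO and the titles do not say whether the controls were mock-transfected, so an effect of this ASO and an effect of transfecting any ASO cannot be told apart. Whether each library had its own culture is not stated, so the p-values below are set against a library-to-library spread that may be purely technical.

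An intronic microRNA can be transcribed as part of its host gene's primary transcript, which was not measured for these 2. The nuclear enzyme Drosha frees the hairpin, Dicer trims it to a short duplex, and a strand of that duplex enters an Argonaute protein. Bases 2 to 8 of that strand, the seed, do most of the pairing with target messenger RNAs. MAPK8IP3, the host of miR-3177, encodes a scaffold of the JNK kinase pathway that also links cargo to motor proteins along axons. WLS, the host of miR-1262, encodes the membrane protein that carries Wnt ligands to the cell surface.

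The mature strands and their hairpins are shown because the seed, the arm and the likeness to miR-31 are properties that did not enter the choice of these microRNAs. Sequences are from RefSeq (GRCh38.p14), written 5′ to 3′. In the mature strands the capitals mark the seed:
miR-3177-3p: uGCACGGCacuggggacacgu
miR-1262: aUGGGUGAauuuguagaaggau
miR-4701-3p: aUGGGUGAuggguguggugu
miR-6736-5p: cUGGGUGAgggcaucuguggu
In the hairpins the capitals mark the listed mature strand:
MIR3177: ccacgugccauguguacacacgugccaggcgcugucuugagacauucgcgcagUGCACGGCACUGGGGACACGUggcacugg
MIR1262: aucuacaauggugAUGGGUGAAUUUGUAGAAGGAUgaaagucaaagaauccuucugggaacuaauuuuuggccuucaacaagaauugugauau

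The seeds of the 2 microRNAs differ. The seed of miR-3177-3p, GCACGGC, contains a CG step, and 0 of the other microRNAs among 2370 RefSeq mature names carry it, whether 7 bases (2 to 8) or 6 bases (2 to 7) are compared. The seed of miR-1262, UGGGUGA, is shared with 2 others, miR-4701-3p and miR-6736-5p, whose remaining bases differ. Neither of these was listed in the deposited table, and neither was miR-3177-5p from the opposite arm of the miR-3177 hairpin. miR-3177-3p has a GC content of 66.7% over 21 bases, and miR-1262 has 36.4% over 22 bases. The lengths listed for both entries in the deposited table equal these RefSeq lengths.

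The hairpins also differed. miR-3177-3p comes from the 3′ arm (bases 54 to 74 of an 82-base hairpin) and miR-1262 from the 5′ arm (bases 14 to 35 of a 93-base hairpin). Folding with RNAfold gave the MIR3177 hairpin a minimum free energy of −44.9 kcal/mol and the MIR1262 hairpin −22.2 kcal/mol. Per base, 23.5% of 1560 RefSeq hairpins were more stable than MIR3177 and 97.6% were more stable than MIR1262. In the predicted folds 16 of the 21 bases of miR-3177-3p and 19 of the 22 bases of miR-1262 were paired. The 2 microRNAs therefore shared neither seed, arm, base composition nor predicted stability.

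Both genes sit on the strand of their host, and the distances to exons given here are within 1 coding transcript of each host. MIR3177 lies on chromosome 16, 1734985 to 1735066, plus strand (GRCh38), in intron 4 of the principal 32-exon coding transcript of MAPK8IP3 in GENCODE 29. That intron is 13756 bases long, and the hairpin lies 5406 bases past the upstream exon and 8268 bases before the downstream exon. MIR1262 lies on chromosome 1, 68183518 to 68183610, minus strand, in intron 2 of a 12-exon coding transcript of WLS. That intron is 34707 bases long, and the hairpin lies 10344 bases past the upstream exon and 24270 bases before the downstream exon. In these transcripts neither hairpin touches a splice site, as a mirtron (a microRNA released by splicing alone) would. Not every annotated host transcript covers the hairpin: 5 of 16 for MAPK8IP3 and 10 of 14 for WLS do. Host messenger RNA was not measured in these small RNA libraries.

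**Figure D1:**
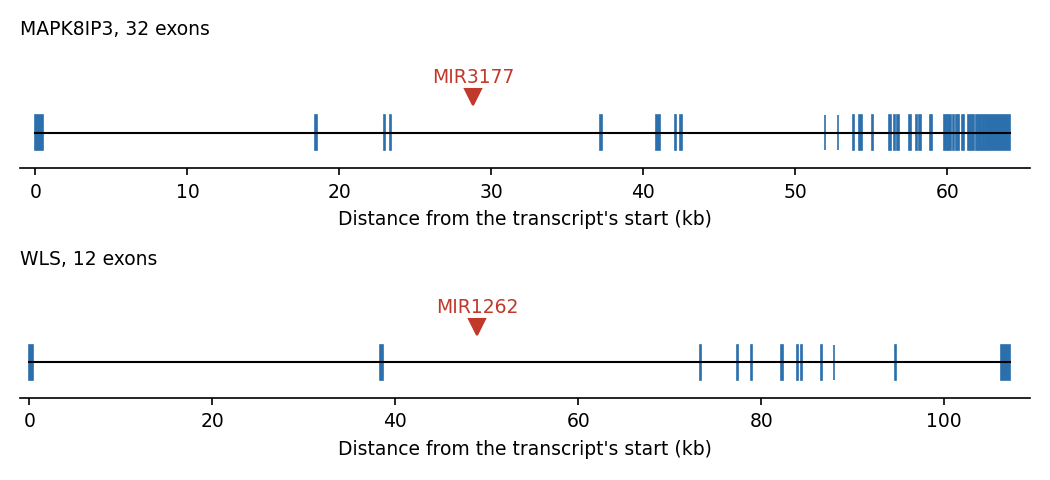
Map of the 2 host transcripts, drawn by distance in kb from each transcript's start, with exons as blue boxes, introns as the black line and the microRNA gene as a red triangle. MIR3177 falls in intron 4 of MAPK8IP3 and MIR1262 in intron 2 of WLS, 5406 and 10344 bases from the nearest exon drawn.

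The ASO was directed at miR-31, so each hairpin was compared with the miR-31 hairpin. An ASO that pairs with a stretch of the miR-31 hairpin would find the same letters wherever that stretch recurs. The ASO's own sequence was not used here. The longest run of identical letters was 6 bases for MIR3177, which occurred at 2 places, UGCCAU (bases 6 to 11) and ACUGGG (bases 62 to 67, inside miR-3177-3p). A run at least this long was found in 74.0% of the 1559 other hairpins. For MIR1262 the longest run was 8 bases, CUGGGAAC (bases 54 to 61), on the arm opposite the mature strand. A run of at least 8 bases was found in 8.5% of the other hairpins, and the longest in any of them was 11. In the miR-31 hairpin the shared letters, in capitals, are bases 35 to 42, which overlap the predicted end loop at bases 32 to 39:
MIR31: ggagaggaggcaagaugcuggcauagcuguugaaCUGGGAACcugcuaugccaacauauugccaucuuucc
Mature miR-31-5p takes bases 8 to 28 of the miR-31 hairpin, so CUGGGAAC lies outside it. ACUGGG (bases 34 to 39 of the miR-31 hairpin) and UGCCAU (bases 60 to 65) also lie outside it. The longest run that could pair with the miR-31 hairpin was 6 bases in MIR3177 and 7 bases in MIR1262, lengths reached by 69.0% and 26.4% of the other hairpins. These matches describe letters only, and whether the ASO binds either hairpin was not measured.

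Total counts ran from 8168828 to 11677123 per library, and known microRNAs held 99.1% of them. Levels below are CPM, counts scaled to a common library total, after TMM scaling, which corrects for differences in composition between libraries. Adapter ligation favours some sequences, so a level compares a microRNA between libraries and not with another microRNA. The target did not check the labels: miR-31-5p averaged 837 ± 166 CPM (SD, n = 4) with ASO and 736 ± 305 CPM (SD, n = 4) without, and its groups overlapped. Every direction below therefore rests on the labels. All 6 microRNAs listed as a HEK293 baseline were present, with a summed 116233 to 120226 CPM with ASO and 114963 to 121352 CPM without. Of 7 blood microRNAs 3 were listed, with sums from 0 to 1.09 CPM with ASO and 0 to 1.05 CPM without. The sums overlapped between groups for the 4 muscle microRNAs (5.46 to 9.61 CPM with ASO and 4.99 to 7.21 CPM without), the 1 of 3 neural microRNAs that was listed (2969 to 3521 and 3449 to 3614 CPM) and the 3 endothelial and mesenchymal ones (904 to 997 and 921 to 1025 CPM). The liver microRNA miR-122-5p moved with the groups in the opposite direction to the 2 intronic microRNAs (25.3 to 41.5 CPM with ASO and 10.3 to 14.3 CPM without), and its part in the results was not tested.

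miR-3177-3p was lower in every ASO library than in any control. The 4 ASO libraries, in order of number, held 482, 611, 595 and 768 counts of it, or 49.5, 51.6, 53.5 and 74.6 CPM. The 4 controls held 1202, 990, 913 and 1198 counts, or 119, 106, 110 and 106 CPM. The controls lay close together, and among the ASO libraries number 4 stood above the other three. Even so the highest ASO library was below the lowest control, which was 1.42 times higher. The group means were 57.3 ± 11.7 CPM (SD, n = 4) with ASO and 110 ± 6.35 CPM (SD, n = 4) without, a fitted 1.92-fold lower level (log2 fold change −0.94, SE 0.14). Without ASO library 4 the ASO mean was 51.5 ± 2.03 CPM (SD, n = 3) and the level was 2.14-fold lower (log2 fold change −1.10, SE 0.078). The microRNA was chosen for this difference, which is given as a description with no test. In bulk RNA, fewer cells that make a microRNA and less of it per cell cannot be told apart.

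miR-1262 was lower by a smaller factor, and its libraries varied little. The 4 ASO libraries held 174, 200, 185 and 171 counts, or 17.9, 16.9, 16.6 and 16.6 CPM. The 4 controls held 243, 245, 188 and 279 counts, or 24.1, 26.2, 22.7 and 24.6 CPM. No library of either group stood apart from its group, and the lowest control was 1.27 times the highest ASO library. The group means were 17.0 ± 0.583 CPM (SD, n = 4) with ASO and 24.4 ± 1.46 CPM (SD, n = 4) without, a fitted 1.44-fold lower level (log2 fold change −0.52, SE 0.082). This difference, too, is what the microRNA was chosen for and has no test. Wilson 95% intervals show how far counting limits a single library: from 14.8 to 19.9 CPM in ASO library 1 and from 20.4 to 26.2 CPM in control library 1, before TMM scaling. Reads copied by PCR are not separate molecules, so the intervals cover counting error alone.

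**Figure D2:**
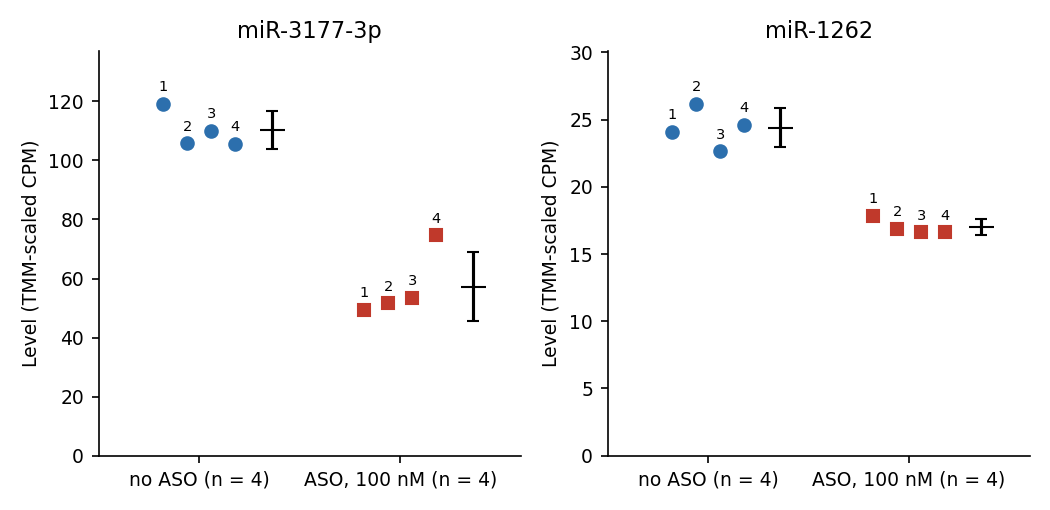
Levels of miR-3177-3p and miR-1262 (TMM-scaled CPM, axes from 0) in the 4 libraries without ASO (blue circles) and the 4 with ASO (red squares), numbered by library; black bars are the mean ± SD of each group. For both microRNAs all ASO points lie below all control points, and ASO library 4 is the highest ASO point for miR-3177-3p at 74.6 CPM.

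The 2 microRNAs did not move in step within the ASO group. miR-3177-3p gave 2.77, 3.06, 3.22 and 4.49 counts per count of miR-1262 across the ASO libraries, and 4.95, 4.04, 4.86 and 4.29 across the controls. In ASO library 4 this ratio lay within the range of the controls, and in the other three ASO libraries it lay below all of them.

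The spread between libraries was set against the spread that counting alone would give. For miR-1262 the coefficient of variation was 3.43% with ASO and 5.98% without, where counting predicts 7.40% and 6.47%. Its chi-square per degree of freedom, which is about 1 when libraries differ by counting error alone, was 0.199 with ASO and 0.767 without. Of the 745 entries fitted, 1.48% had a smaller value in the ASO libraries and 8.72% in the controls. For miR-3177-3p the coefficient of variation was 20.4% with ASO and 5.76% without, where counting predicts 4.04% and 3.05%. Its chi-square per degree of freedom was 24.7 with ASO and 3.72 without, against medians of 5.12 and 7.20 over all fitted entries. The replicate spread of miR-1262 was thus no wider than counting error in either group, while that of miR-3177-3p exceeded it in both. A small spread helped these microRNAs to be picked, so these values describe them and support nothing.

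**Figure D3:**
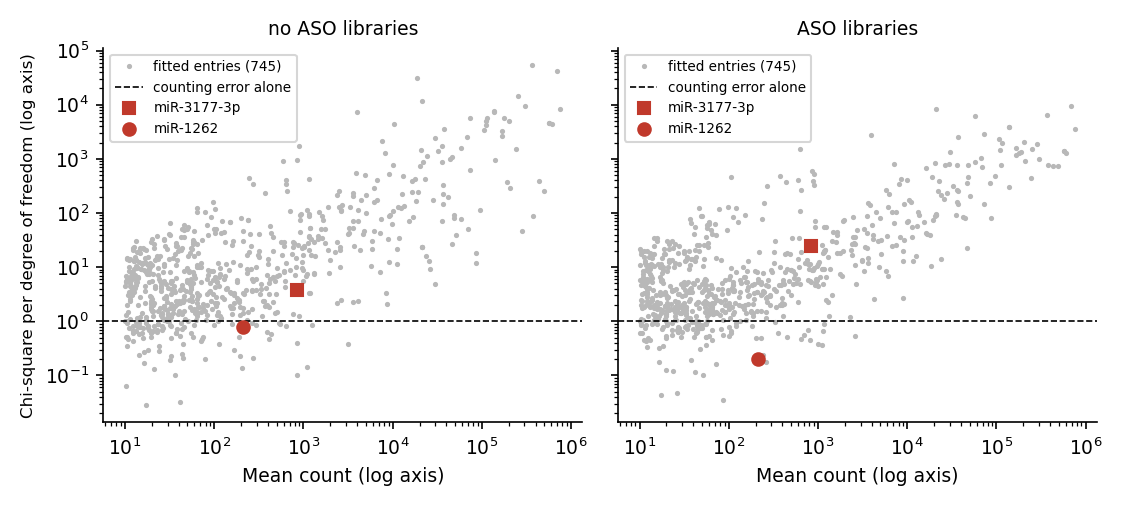
Chi-square per degree of freedom within each group (log axis) against mean count (log axis) for the 745 fitted entries in grey, with miR-3177-3p as a red square and miR-1262 as a red circle; the dashed line at 1 marks counting error alone. miR-1262 lies under the line in both groups, at 0.199 with ASO and 0.767 without, and miR-3177-3p lies above it.

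How common such a pattern was in the whole table sets the scale. Among the 745 entries fitted, edgeR's quasi-likelihood test with Benjamini-Hochberg adjustment called 1 lower (0.134%) and 0 higher (0.0%) at an adjusted p under 0.05. The call was miR-503-5p, a cell-cycle microRNA of chromosome X, at 128 ± 9.07 CPM (SD, n = 4) with ASO and 240 ± 21.7 CPM (SD, n = 4) without. At an unadjusted p under 0.05 there were 45 lower and 33 higher, and DESeq2 called 14 lower and 9 higher. The ASO libraries lay wholly below the controls in 39 entries (5.23%) and wholly above them in 23 (3.09%). Among the 539 known microRNAs fitted these were 30 (5.57%) and 23 (4.27%). Of those 30, 2 had a larger fitted fall than miR-3177-3p and 9 a larger one than miR-1262. miR-503-5p lost its call without the filter on low counts (adjusted p = 0.113 in edgeR's test). Leaving out control 2 also brought the edgeR count to 0. It was 2 when ASO library 1, control 1 or control 3 was dropped, 3 when ASO library 4 was dropped and 5 when control 4 was dropped. The count of 39 became 63 on dropping control 3 and 84 on dropping control 4, where a smaller group also makes separation easier.

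The other intronic microRNAs were set beside known microRNAs at large. Of 903 known microRNAs, 898 were placed in the genome and 419 lay only in introns of protein-coding genes on the same strand. Entries named by locus, such as miR-128-1-3p and miR-128-2-3p, were counted separately. Beside miR-3177-3p and miR-1262, 252 of the 419 were fitted. Their median log2 fold change was 0.037, against 0.054 for 274 known microRNAs outside such introns and 0.012 for all 745 entries. Of the 252, 0 passed the threshold in either direction in edgeR's test, 110 had a log2 fold change below 0 and 142 had one above 0. Among all 539 known microRNAs fitted these counts were 234 and 305, and among all 745 entries 360 and 385. The ASO libraries lay wholly below the controls in 9 of the 252 (3.57%, against 5.57% of known entries) and wholly above in 8 (3.17%, against 4.27%). In the 274 microRNAs outside such introns these counts were 17 (6.20%) and 14 (5.11%), and the difference between the classes was not tested. Some of these 274, such as miR-302b-3p, lie in introns on the strand opposite the host. Others, such as miR-7706 at AKAP13 and miR-423-3p at NSRP1, overlap an exon of some annotated transcript of a protein-coding gene. The 274 are therefore not a set free of host genes. The 9 became 14 when known microRNAs were fitted alone (35 among all entries of that fit) or ASO library 2 was left out (55 among all entries). Dropping ASO library 4 gave 17 where all entries gave 56, dropping control 3 gave 18 where all gave 63, and dropping control 4 gave 26 where all gave 84. Groups of fewer libraries stand apart more easily, and the part this played in these rises was not tested.

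**Figure D4:**
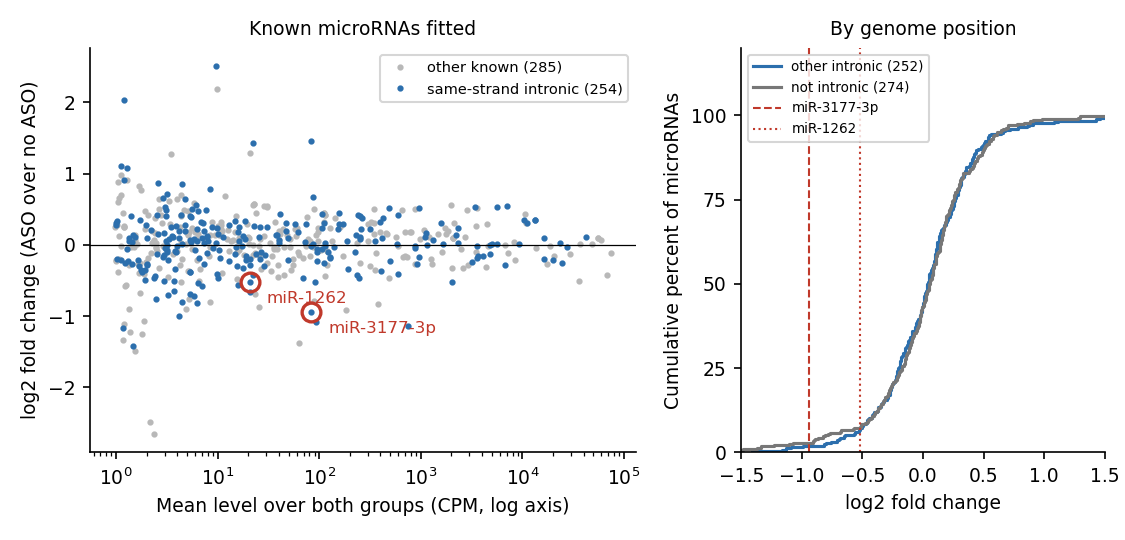
Left, log2 fold change (ASO over no ASO) against mean level (CPM, log axis) for the 539 known microRNAs fitted, with same-strand intronic ones in blue, others in grey and the 2 chosen microRNAs circled in red. Right, cumulative percent of microRNAs by log2 fold change for the 252 other same-strand intronic ones and the 274 outside such introns (labelled not intronic). Their medians were 0.037 and 0.054 and their 5th percentiles −0.60 and −0.79. Red lines mark miR-3177-3p at −0.94 and miR-1262 at −0.52. The 274 include microRNAs that lie within protein-coding genes.

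Among the other intronic microRNAs whose groups did not overlap, 4 of those with the largest falls are given here, in hosts of varied function. miR-582-5p, in an intron of the cAMP phosphodiesterase gene PDE4D, had 41.1 to 78.6 CPM with ASO and 93.8 to 169 CPM without (log2 fold change −1.09, SE 0.26, adjusted p = 0.350 in edgeR's test). Its groups did not overlap, but both varied widely, and it did not pass the threshold. miR-4511 in DENND4A had a log2 fold change of −0.50 at only 3.06 and 4.34 CPM with and without ASO. miR-383-5p in the sarcoglycan gene SGCZ had −0.42 and miR-504-5p in FGF13 had −0.41. In edgeR's test none of these 3 passed (adjusted p = 0.402 to 0.445).

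Of the 8 intronic microRNAs with all ASO libraries above the controls, the 5 with the largest changes are named. miR-887-3p, in an intron of the F-box gene FBXL7, had 144 to 220 counts in the ASO libraries but 0 in control libraries 1, 2 and 4 and 97 in control library 3. A count of 0, read as at most 3 counts, allows up to 0.286, 0.312 and 0.267 CPM in those 3 controls, and the fitted change did not pass the threshold (adjusted p = 0.578 in edgeR's test). Without control library 3 it passed (adjusted p = 0.000466), with the 3 remaining controls all at 0. The other-arm entry, miR-887-5p, had the same chi-square per degree of freedom in the ASO libraries (1.70 for both). In the controls its value was 67.2, against 120 for miR-887-3p. It averaged 150 counts over the libraries, against 101 for miR-887-3p. Whether reads were divided between the 2 entries was not tested, so the zeros of miR-887-3p may not mean absence. miR-548t-5p in GALNT7 (log2 fold change 0.79), miR-186-5p in ZRANB2 (0.54), miR-454-3p in SKA2 (0.51) and miR-3616-5p in EYA2 (0.50) did not pass in edgeR's test, with adjusted p from 0.402 to 0.412. From control 1 to control 4, miR-186-5p rose in order (1937, 2695, 3061 and 3551 CPM), as did miR-454-3p (281, 396, 447 and 494 CPM). Control 4 came close to the lowest ASO library for both (3590 and 515 CPM). The controls of miR-31-5p rose in the same order (350, 657, 880 and 1056 CPM). Those of miR-548t-5p and miR-3616-5p followed no such order, and the cause was not tested. The most abundant intronic microRNAs also did not pass: miR-26a-5p of the CTDSP genes had a log2 fold change of 0.11, miR-25-3p of the replication gene MCM7 −0.022, miR-10b-5p within HOXD3 −0.25, let-7g-5p of WDR82 0.023 and miR-128-1-3p of R3HDM1 −0.22 (adjusted p = 0.445 to 0.948 in edgeR's test). The direction of miR-25-3p turned to 0.0027 with library totals alone and turned without ASO library 1 (0.031) or ASO library 3 (0.040), and that of let-7g-5p turned to −0.018 without control library 1. Without control library 1, miR-10b-5p was at −0.065 and miR-128-1-3p at −0.10. The host of miR-128-1-3p follows from the locus in its name, and miR-128-2-3p, placed in ARPP21, is a separate entry. How reads were assigned to these entries was not tested.

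None of the fitted neighbours of MIR3177 passed the threshold, and the groups of each overlapped. Within 1000000 bases, 6 known microRNAs of the table have a gene on chromosome 16, and 4 of them were fitted. miR-3677-3p (535647 bases away) had 1.98 to 3.21 CPM with ASO and 3.01 to 4.37 CPM without, and its groups overlapped (log2 fold change −0.45, SE 0.23, adjusted p = 0.464 in edgeR's test). miR-940, which lies 536681 bases away, had a log2 fold change of 0.14 (SE 0.26) and miR-4717-3p, at 539554 bases, had 0.025 (SE 0.45), with adjusted p = 0.861 and 0.981 in edgeR's test. miR-3180 had 0.29 (SE 1.11, adjusted p = 0.960 in edgeR's test), but it has further copies on chromosome 16 and was at 0 in control library 1. Without that control miR-940 turned to −0.040, miR-3180 to −0.11 and miR-4717-3p to −0.19. The entry miR-3180-3p had the same chi-square per degree of freedom as miR-3180 in the ASO libraries (0.495 for both). In the controls the values were 0.807 for miR-3180-3p and 79.7 for miR-3180, with mean counts of 231 and 200 over the libraries. Whether reads were assigned to one entry or the other was not tested, so the 0 of miR-3180 may not mean absence. miR-4717-3p also turned without ASO library 2 (−0.20), ASO library 3 (−0.0080) or control library 2 (−0.0063). miR-3677-3p was at −0.29 without ASO library 3. Of the remaining pair, miR-6511b-3p was above 0 in 1 library and miR-6767-5p in 4. Around MIR1262 the same window held 0 other known microRNAs of the table, so no neighbour could be compared.

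The microRNAs with the most similar profiles were sought by the root mean square difference of log2(CPM + 1), each centred on its own mean over the 8 libraries, among 319 other known microRNAs with a mean count of at least 100. Closest to miR-3177-3p were miR-503-5p (0.24), miR-184 (0.27), miR-1262 (0.30), miR-4421 (0.31) and miR-7706 (0.32), where the median over all 319 was 0.55. miR-184, a microRNA of lens and cornea, had 18.1 ± 2.12 CPM (SD, n = 4) with ASO and 33.1 ± 8.99 CPM (SD, n = 4) without, and miR-7706 had 189 to 330 and 366 to 724 CPM. Closest to miR-1262 were miR-302b-3p (0.099), miR-383-5p (0.10), miR-873-3p (0.13), miR-101-3p (0.15) and miR-101-2-3p (0.15), against a median of 0.32. miR-302b-3p, of the pluripotency cluster antisense to LARP7, had 27.3 to 32.1 CPM with ASO and 34.7 to 40.0 CPM without. The 2 miR-101 entries share a mature strand and are not independent. Seen from miR-1262, miR-3177-3p ranked 143 of 319. Of the 9 other entries named here, 2 (miR-383-5p and miR-101-2-3p) were classed as intronic on the host's strand. Among the 539 known microRNAs fitted 254 were so classed, and the difference was not tested. For miR-101-2-3p the class rests on the locus in its name. The entry miR-101-3p, with the same mature strand, has 2 loci that are not both in such introns. These profiles were matched to a pattern the 2 microRNAs were chosen for, so the likeness carries no test.

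**Figure D5:**
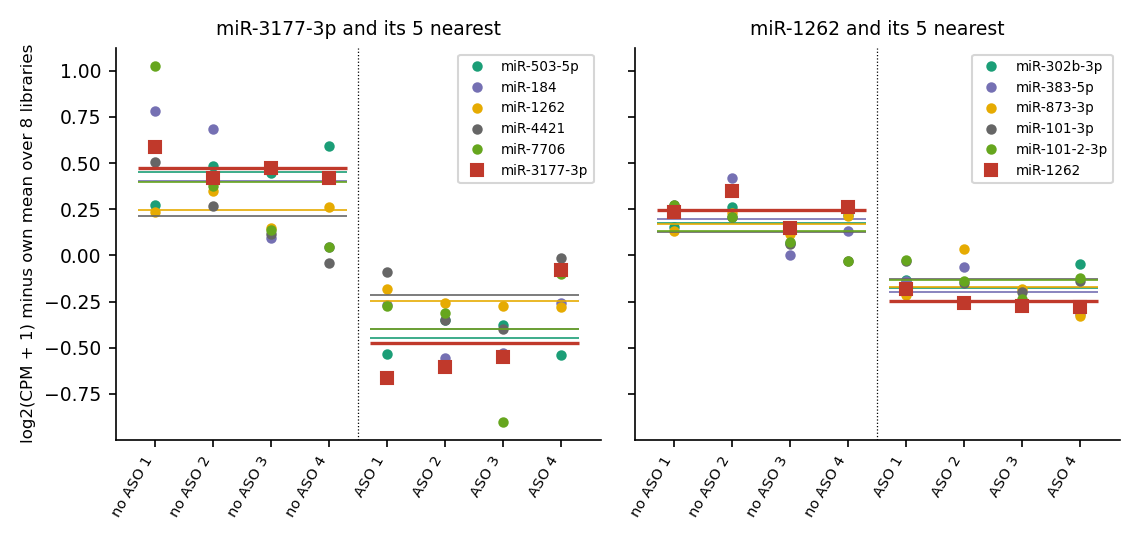
Centred log2(CPM + 1) in each of the 8 libraries for miR-3177-3p (left, red squares) and miR-1262 (right, red squares) with the 5 known microRNAs of nearest profile in other colours; horizontal lines are group means. On the left the points scatter widely (root mean square differences of 0.24 to 0.32), and on the right they lie close together (0.099 to 0.15).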

How the data were processed

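The authors deposited 1 table with a whole-number count per microRNA entry and library, not normalized, and 8 columns headed TPM that proved to be CPM (within 0.223 CPM of the count scaled to the library total, with no division by length). The deposited length column was used only to compare lengths. Per the submitters' processing notes, the tools were bcl2fastq 2.20, Trimmomatic 0.30 and edgeR 3.4.6, with build GRCh38. For the aligner, counter and microRNA annotation, a name is not given in the sources used here. Titles gave the groups. Entries above 0 in 4 or more libraries and averaging 10 or more counts were fitted with edgeR 4.0.16 (quasi-likelihood, TMM, two-sided p, Benjamini-Hochberg adjustment over all 745, threshold 0.05). On counts simulated for these 745 entries, with many of them changed at once, 7.69% of changes of 1.5-fold were recovered, 23.5% at 2-fold and 79.1% at 4-fold. The simulated fit also called 1 unchanged entry. Many true changes ease the adjustment of p, so these rates need not hold for the measured libraries. MicroRNAs were placed with RefSeq (846) or GENCODE 29 gene names (52); intronic means inside a protein-coding gene on its strand and off the exons of all its transcripts. Hairpins were folded with RNAfold 2.7.2. One count was 0.0856 to 0.122 CPM.

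The 2 microRNAs and the lists were chosen with earlier results of these data known. The rule for names took the 2 microRNAs, miR-31-5p, the 5 nearest profiles of each, fitted neighbours, up to 5 intronic microRNAs per direction with the largest non-overlapping changes, and the 5 most abundant intronic ones (1 microRNA the rule takes is not reported here); seed mates were searched too. miR-122-5p (the liver marker list) and the 2 unfitted neighbours were named after their values were seen. Alternatives were other scalings, filters, DESeq2 1.42.0, a replicate block and leaving out each library.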

Additional observations from a re-analysis of the deposited data

Results flagged for a closer look

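With 4 libraries a group, a library was noted when its gap to the next one took more than 0.829 of the group's range, which chance gives in about 1 in 20 groups. Of 60 groups examined (30 named microRNAs in both conditions), 5 met this. miR-3177-3p in ASO library 4 stood at 74.6 CPM, above 49.5 to 53.5 CPM in the other three. miR-3180 in control library 1 was at 0, against 21.3 to 24.5 CPM in the other controls. miR-940 in ASO library 1 stood at 7.70 CPM, below 8.99 to 9.23 CPM. miR-454-3p in ASO library 4 stood at 515 CPM, below 594 to 603 CPM. miR-887-3p in control library 3 stood at 11.7 CPM while the other controls were at 0.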

How the results depend on the processing

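The log2 fold change of miR-3177-3p ranged from −1.10 to −0.87 and that of miR-1262 from −0.56 to −0.47 over the 16 fits run. The groups of both stayed apart in each of the 15 edgeR fits. Leaving out a library can bring separate groups together only through small changes in scaling. The 2 microRNAs were also chosen for this difference, so their staying apart was nearly fixed in advance and supports nothing. The count of entries past the threshold was 1, and became 0 without the filter, 5 (4 lower, 1 higher) with a mean count of at least 100, 4 (3 lower, 1 higher) with known microRNAs only, 23 (14 lower, 9 higher) with DESeq2, 0 with the replicate block and 0 to 5 on leaving out 1 library (0 to 2 lower, 0 to 3 higher); the cause was not tested. Library numbers did not pair the libraries (correlations of 0.0073, 0.034, 0.297 and −0.039, and 2 of 8 libraries correlated best with their own number). With the replicate block miR-3177-3p was at −0.96 and miR-1262 at −0.52. miR-503-5p lost its call with the block (adjusted p = 0.241), without the filter (adjusted p = 0.113) and without control library 2 (adjusted p = 0.0600). Leaving out 1 library gave 32 to 84 entries lower and apart, 7 to 26 other intronic ones (14 with known microRNAs only) and a difference in medians, intronic minus other, of −0.053 to 0.00095 around −0.017. miR-31-5p ranged from −0.036 to 0.40, miR-4717-3p from −0.20 to 0.33, miR-3180 from −0.11 to 0.503, miR-940 from −0.040 to 0.32, miR-25-3p from −0.061 to 0.040 (0.0027 with library totals) and let-7g-5p from −0.018 to 0.059. Of 395 alternative values for other named microRNAs, 373 kept their direction and side of the threshold. At 171 to 279 counts a library, depth limits miR-1262.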
